A study of Mus musculus with 32 samples.

Results

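The PRDM9 peaks of testes from mice without SPO11 were compared with those of B6 testes. The Spo11 KO list holds 1070 intervals and the B6 list 2601, together 3671 of the 122081 intervals in the 9 lists of the series. Every interval of both lists was used, and a B6 peak was called shared when at least 1 bp of it lay under a Spo11 KO peak. The study mapped PRDM9, DMC1 and histone marks by ChIP-seq in mouse testes, and the comparison described here asks which PRDM9 sites are still detected when meiotic breaks cannot be made. B6 mice were of the strain C57BL/6JOlaHsd, and Spo11 KO mice carried the Spo11tm1M allele together with the B6 allele of Prdm9, Dom2, so that both genotypes express the same PRDM9 zinc fingers. Whole testes were taken at 13 days post-partum in both genotypes, the chromatin of 10 mice was pooled for a ChIP, and the antibody was the same affinity-purified anti-PRDM9 serum (BdM). Whole testis also holds cells that are not in meiosis, so fewer cells at a stage of meiosis and less PRDM9 at a site cannot be told apart in these samples.

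Each genotype had 2 ChIP and 2 input libraries, and the 2 ChIP replicates were pooled into 1 list per genotype before deposit. There is therefore no value per replicate, no test between genotypes was possible, and the 95% Clopper-Pearson intervals given with shares cover counting error only. Mapped read pairs of the ChIP numbered 162 M and 168 M (1 M being 1e6) in B6 and 104 M and 117 M in Spo11 KO. Inputs followed the same order, with 152 M and 158 M pairs in B6 and 104 M and 97 M in Spo11 KO. Depth thus differed with genotype and cannot be told apart from it, so a peak missing from the shorter list was not detected at that depth and is not shown to be unbound.

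PRDM9 is a histone methyltransferase of early meiotic prophase. Its zinc fingers bind DNA at the places where recombination will start, and it trimethylates lysine 4 of histone H3 (H3K4me3) on the nucleosomes around them. SPO11 then cuts the DNA, and the recombinase DMC1 loads on the resected ends, so that DMC1 marks the sites that were cut. In the absence of SPO11 no programmed breaks are made and spermatocytes arrest in prophase.

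Peaks were put into 3 classes with the marks measured in B6. Class 1 peaks met the central 400 bp of a B6 DMC1 interval or B6-specific H3K4me3, the marks of recombination sites. Class 2A peaks had no DMC1 and lay under H3K4me3 common to B6 and to RJ2, a strain with another Prdm9 allele. Class 2B peaks had none of these marks. Because the same B6 marks were used for both lists, a class says where a Spo11 KO peak lies and not what it carries in the mutant.

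The sequences below are examples from the classes in mm9, on the plus strand, and most were picked because they hold the sequence that is marked. Capitals mark the word GGTGCTGCT, a core of the PRDM9 Dom2 binding sequence, with up to 1 mismatch and on either strand in class 1, CpG dinucleotides in class 2A and in the class 2B peak of Spo11 KO, and the CTCF core consensus in the class 2B peaks of B6. The PRDM9 word also occurs in peaks of class 2A and 2B, where it is not marked. Most peaks lack an exact match. The exact word was within the central 200 bp of 5.20% of shared B6 peaks, and the exact CTCF consensus of 16.5% of B6-only class 2B peaks. CTCF is the insulator protein that binds together with cohesin. The first is a site bound in both genotypes, the next is the top B6 peak, which had no Spo11 KO peak, and the third is the first class 1 peak of Spo11 KO with the word and no B6 peak.
shared class 1, chr11:57349481-57349600: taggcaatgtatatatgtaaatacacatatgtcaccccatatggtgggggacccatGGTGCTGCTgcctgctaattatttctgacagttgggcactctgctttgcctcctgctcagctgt
B6-only class 1, chr4:119915528-119915647: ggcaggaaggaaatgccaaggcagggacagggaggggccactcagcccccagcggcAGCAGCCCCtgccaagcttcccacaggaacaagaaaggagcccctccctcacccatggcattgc
Spo11 KO-only class 1, chr3:82169111-82169230: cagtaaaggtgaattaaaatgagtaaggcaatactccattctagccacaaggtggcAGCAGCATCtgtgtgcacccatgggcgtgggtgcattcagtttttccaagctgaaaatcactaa
B6-only class 2A, Ube2d3 promoter, chr3:135101015-135101134: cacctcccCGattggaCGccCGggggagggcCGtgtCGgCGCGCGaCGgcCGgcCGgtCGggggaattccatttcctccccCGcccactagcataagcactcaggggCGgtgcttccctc
shared class 2B, chr6:40843668-40843787: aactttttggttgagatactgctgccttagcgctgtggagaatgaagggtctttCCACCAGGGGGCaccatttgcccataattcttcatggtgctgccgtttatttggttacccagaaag
B6-only class 2B, chr11:95382185-95382304: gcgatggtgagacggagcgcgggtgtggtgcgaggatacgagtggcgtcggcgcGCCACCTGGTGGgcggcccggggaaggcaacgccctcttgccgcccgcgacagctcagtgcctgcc
Spo11 KO-only class 2B, chr11:88830200-88830319: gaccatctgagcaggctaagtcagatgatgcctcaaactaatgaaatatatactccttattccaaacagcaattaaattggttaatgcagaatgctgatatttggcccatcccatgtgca

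Of the B6 peaks, 923 (35.5%, interval 33.6 to 37.4%) had a Spo11 KO peak, and these were 86.3% of the Spo11 KO list (84.1 to 88.3%). Every shared peak had exactly 1 partner. The B6 list lacks the peaks common to B6 and RJ2, so a Spo11 KO peak over one of those counted as unshared. Sharing differed between the classes. Among class 1 peaks 918 of 1881 (48.8%, 46.5 to 51.1%) had a Spo11 KO peak, against 0 of 460 class 2A peaks (upper bound 0.799%) and 5 of 260 class 2B peaks (1.92%, 0.627 to 4.43%). The share over all B6 peaks, 35.5%, is the level against which these are to be read.

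Class 1 could be divided further by its marks. With DMC1 and B6-specific H3K4me3 (class 1a) 849 of 1650 B6 peaks were shared (51.5%, 49.0 to 53.9%). With DMC1 and common H3K4me3 (1b) 29 of 72 were shared (40.3%, 28.9 to 52.5%), with DMC1 alone (1c) 37 of 135 (27.4%, 20.1 to 35.7%), and with B6-specific H3K4me3 alone (1d) 3 of 24 (12.5%, 2.66 to 32.4%). The intervals of 1a and 1c did not overlap. Class 1c peaks were also narrower, with a median of 422 bp against 511.5 bp in 1a, and lay lower in the B6 list, at a median row of 1680 against 1149.5.

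The makeup of the lists differed. Class 1 made up 990 of 1070 Spo11 KO peaks (92.5%, 90.8 to 94.0%) and 72.3% of B6 peaks (70.6 to 74.0%). Class 2A made up 3 Spo11 KO peaks (0.280%, 0.0579 to 0.817%) and 17.7% of B6 peaks (16.2 to 19.2%). Class 2B made up 77 Spo11 KO peaks (7.20%, 5.72 to 8.91%) and 9.996% of B6 peaks (8.87 to 11.2%). Among the first 1070 B6 peaks, a list as long as that of the mutant, class 2A made up 199 (18.6%, 16.3 to 21.1%) and class 2B 15 (1.40%, 0.787 to 2.30%). Class 2A was thus rarer and class 2B more frequent in Spo11 KO than in the top of the B6 list. For class 2B the lists were filtered differently: peaks in common with RJ2 were removed from the B6 list, and no such step is described for Spo11 KO. Of the 72 class 2B peaks found in Spo11 KO only, 30 lay over RJ2 or Prdm9 KO peaks.

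Widths fell along the B6 list, and row number and width had a Spearman's rho of -0.77 over 2601 peaks. Sharing fell along it in class 1. In the first 521 rows 349 of 402 class 1 peaks had a Spo11 KO peak (86.8%, 83.1 to 89.97%), in rows 522 to 1041 275 of 429 (64.1%), in rows 1042 to 1561 167 of 409 (40.8%), in rows 1562 to 2081 85 of 367 (23.2%), and in the last 520 rows 42 of 274 (15.3%, 11.3 to 20.2%). Class 2A peaks were spread over the whole B6 list, with 116, 79, 82, 85 and 98 in the same 5 groups of rows, and 0 had a partner in each of them. In the first 521 rows, where most class 1 peaks were shared, the count of 0 of 116 allows a share of up to 3.13%. Class 2B peaks lay mostly low in the list, with 148 of 260 in the last group, so their low share was measured where class 1 was rarely shared as well. Even there they were fewer, 2 of 148 (1.35%, 0.164 to 4.80%), and the interval of class 1 in these rows did not overlap theirs.

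**Figure D1:**
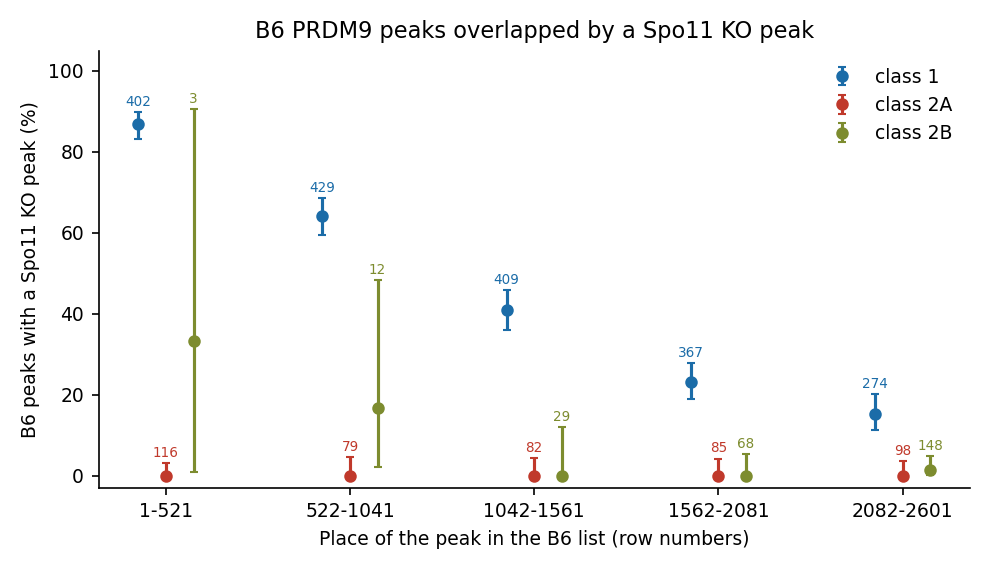
Share of B6 PRDM9 peaks overlapped by a Spo11 KO peak (%), by place in the B6 list (row numbers, in 5 groups) and class. Points are shares, bars 95% Clopper-Pearson intervals and numbers the peaks in each group. Class 1 falls from 86.8 to 15.3%, and class 2A stays at 0 in every group.

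Base composition moved with sharing. Class 1 peaks with a Spo11 KO peak had a median GC content of 43% in their central 200 bp, and those without one 47%. The share of class 1 peaks with a partner was 62.9% (58.0 to 67.6%) where GC was under 40%, 58.3% at 40 to 45%, 51.4% at 45 to 50%, 29.3% at 50 to 55%, 18.4% at 55 to 60% and 9.68% (2.04 to 25.8%) at 60% and over. GC and row number of class 1 peaks had a Spearman's rho of 0.04 over 1881 peaks. In the first 521 rows 99 of 100 class 1 peaks under 40% GC were shared, against 41 of 55 at 50 to 55% and 17 of 35 at 55 to 60%. In rows 522 to 1041 the same groups gave 84 of 102, 27 of 68 and 6 of 40. The unshared peaks of the first 521 rows were not narrow, with a median width of 765 bp against 737 bp for the shared ones, and their median GC was 54% against 44%. The GC-rich top B6 peak, chr4:119914887-119916324, is of this kind: it spans 1438 bp, has DMC1 and B6-specific H3K4me3, a GC content of 63% and no Spo11 KO peak, and lies 44348 bp from the nearest start, that of Foxo6. Whether the libraries of the genotypes differed in how GC-rich fragments were recovered was not tested, since the lists hold no reads.

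**Figure D2:**
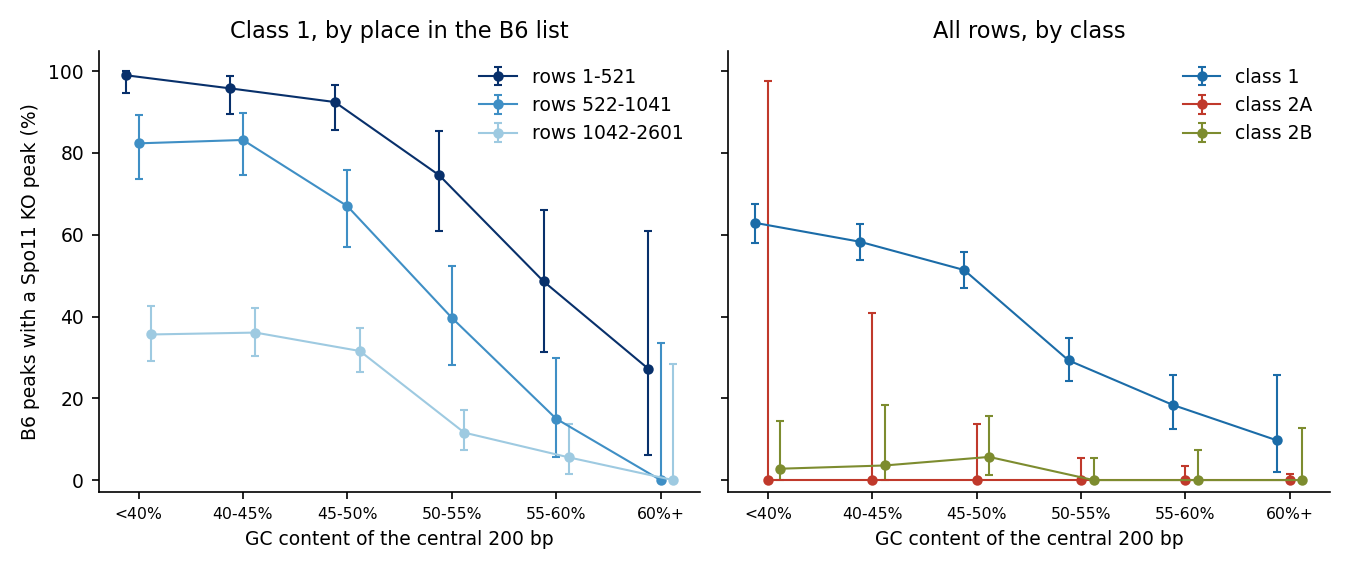
Share of B6 peaks with a Spo11 KO peak (%) against GC content of the central 200 bp, for class 1 in 3 groups of rows (left) and for all rows by class (right). Points are shares and bars 95% Clopper-Pearson intervals. The class 1 share falls with GC in each group of rows, from 99 to 27.3% in the first, and the class 2A points lie at 0 throughout, with 1 to 25 peaks in each group under 50% GC.

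Class 2A peaks are GC-rich, with a median of 61%, and so had to be set beside class 1 peaks of like composition. At 45 to 55% GC, 351 of 814 class 1 peaks were shared (43.1%, 39.7 to 46.6%), against 0 of 91 class 2A peaks (up to 3.97%) and 3 of 121 class 2B peaks (2.48%, 0.514 to 7.07%). At 55% and over, 30 of 178 class 1 peaks were shared (16.9%, 11.7 to 23.2%), against 0 of 361 class 2A peaks (up to 1.02%) and 0 of 75 class 2B peaks (up to 4.80%). Most class 2A peaks of the upper range, 253, had 60% GC and over, against 31 of its class 1 peaks. There 3 of 31 class 1 peaks were shared (9.68%, 2.04 to 25.8%), against 0 of 253 class 2A peaks (up to 1.45%). Class 2A thus lay below class 1 in each range, with the smallest difference and few class 1 peaks at 60% and over. Had class 2A peaks been shared as often as class 1 peaks of the same row group and GC group, 91.4 of 460 would have had a partner. Here 55% GC and over was taken as 1 group. Class 2A peaks lay higher within it than class 1 peaks, so this number is too high for peaks of equal GC. With GC measured over 1 kb, which takes in the surrounding CpG island, the number was 51.7, and over 10 kb it was 180. For class 2B the number was 41.5 of 260 with GC over the central 200 bp, and 5 were found. Where a centre was CpG-rich (GC of at least 55% and a ratio of observed to expected CpG of at least 0.65), class 1 held only 5 peaks, 0 of them shared, so the 308 class 2A peaks of this kind, 0 shared, have almost no class 1 peaks to be compared with.

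Promoters were nearly absent from the mutant list. A centre within 1 kb of the start of a protein-coding transcript was found for 503 B6 peaks (19.3%, 17.8 to 20.9%) and 25 Spo11 KO peaks (2.34%, 1.52 to 3.43%). Of the B6 peaks with a Spo11 KO partner 2.49% lay at promoters, and of those without 28.6%. The promoter peaks that were shared were all class 1, 23 of 77 (29.9%, 19.97 to 41.4%), whereas 0 of 402 class 2A promoter peaks (up to 0.913%) and 0 of 24 class 2B promoter peaks (up to 14.2%) were shared. Below 55% GC the counts were 20 of 51 for class 1 and 0 of 74 for class 2A (up to 4.86%). In the first 1041 rows they were 16 of 39 and 0 of 185.

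The first B6 promoter peak without a Spo11 KO peak was at Rbm39, a splicing factor, at row 13 with 633 bp and 49 bp from the start. It was followed by Ube2d3, a ubiquitin-conjugating enzyme (row 18, 800 bp), Eif4a3, the helicase of the exon junction complex (row 19, 579 bp), and Hspa4, a chaperone of the Hsp70 family (row 22, 479 bp). Further ones in the first 55 rows were Psmd5, Rps7, Eif5, Uhrf2, Mob1a, 1600012H06Rik, Tipin, Mdh2, Supt5h, Ankfy1 and Rraga, all class 2A. The 15 intervals were 479 to 976 bp wide, with centres 1 to 205 bp from a start and a GC content of 54 to 70.5%.

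The first shared promoter peaks were of another kind, with centres 85 to 966 bp from the start and marks of recombination in B6. The first was at Nf1, which encodes the Ras regulator neurofibromin, with 1241 bp at row 27 in B6 and 851 bp at row 15 in Spo11 KO. It was followed by peaks at Zfp961, Usp48, Slc1a2, Mrps5, Rgs18, Dusp26, Dclk3, Cyp2d22 and Parp4. At Usp48, a deubiquitinase, the interval measured 990 bp in B6 and 377 bp in Spo11 KO, and at Rgs18, a regulator of G protein signalling, 623 and 609 bp. All 10 had a DMC1 centre within 337 bp in B6, and in each the Spo11 KO interval was the narrower.

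Promoters of genes from lists chosen for their role were counted in both lists. Over all genes 23 of 503 B6 promoter peaks were shared, so counts of 0 in short lists say nothing particular to them. Of 84 genes of ribosomal proteins 19 (22.6%, 14.2 to 33.0%) had a B6 promoter peak, 0 of which had a partner; all 19 were class 2A, from Rps7 at row 26 to Rplp0 at row 2593. Over all 22208 protein-coding genes 501 (2.26%) had a B6 promoter peak. Of 57 splicing and RNA processing factors 7 had a B6 promoter peak (Rbm39, Puf60, Snrnp70, Hnrnpk, Srsf10, Srsf11 and Rbm6), of 30 genes of CTCF, cohesin and condensin 3 (Ncapg and Ncapg2 of the condensins and Stag3 of meiotic cohesin), and of 48 genes of meiotic recombination and synapsis 2 (Mre11a of the break-processing complex and Sycp1 of the synaptonemal complex). None of these 12 peaks had a Spo11 KO peak. Of 51 genes of chromatin and histone methylation 2 had one in B6, a class 2A peak at Suv39h1 without a partner and a class 1 peak at the H3K4 demethylase Kdm1a with one. The Kdm1a interval was 1217 bp wide at row 827 in B6 and 436 bp wide at row 791 in Spo11 KO.

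The class 2A peaks of Spo11 KO were 3, and 2 of them had no B6 peak. The widest interval of the whole mutant list, chr10:57675385-57677692 (2308 bp, row 46, GC 35%), is intergenic, 9735 bp from the start of Dux, a homeobox gene of early embryos. The second, chrX:147023291-147023549 (259 bp, row 1051), lies in an intron of Apex2 and overlaps a PRDM9 peak of RJ2. The third, chr2:102499388-102499662 (275 bp, row 668), lies 87 bp from a start of the glutamate transporter gene Slc1a2. It has a B6 partner of 505 bp at row 83, which is class 1b because the wider interval reached the central part of a DMC1 interval. It was the only pair of the 923 whose class differed between the lists.

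Shared sites lay at nearly the same place in both genotypes. Partners had to overlap by at least 1 bp, so their widths limit how far apart the centres can be. The centres of partners were a median of 41 bp apart (38 to 45 bp), 726 of 923 pairs (78.7%, 75.9 to 81.3%) were at most 100 bp apart, and the largest distance was 356 bp. The signed distance had a median of -1 bp (-5 to 4), so neither list was displaced along the chromosomes. In 58 pairs an exact GGTGCTGCT word lay inside both intervals. The B6 centre was a median of 48.5 bp from it and the Spo11 KO centre 40.5 bp, and the latter was the nearer in 30 of 58. In 914 pairs both members met a DMC1 interval, whose centre was 82 bp (77 to 86) from the B6 centre and 74 bp (68 to 82) from the Spo11 KO centre. The intervals of the medians overlapped between genotypes for DMC1 and for the word, where they were 39 to 65 bp in B6 and 27 to 60 bp in Spo11 KO.

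Shared peaks were narrower in the mutant. The median width was 558 bp in B6 (546 to 576) and 474 bp in Spo11 KO (466 to 483), the median ratio of Spo11 KO to B6 width was 0.872 (0.852 to 0.892), and the mutant interval was the narrower in 636 of 923 pairs (68.9%, 65.8 to 71.9%). Widths of partners had a Spearman's rho of 0.47. The ratio rose along the B6 list: 0.765 in the first 521 rows, 0.878 in rows 522 to 1041, 0.918 in rows 1042 to 1561, 1.05 in rows 1562 to 2081 and 1.13 in the last group. Part of this rise is built in, because the B6 width is the denominator of the ratio and itself falls along the B6 list (rho -0.77). The rise therefore does not describe a difference between the genotypes. In the lower rows only peaks that passed the threshold in the mutant can appear, so these values describe pairs that were selected for being detected. The ratio was 0.883 under 40% GC, 0.893 at 40 to 45%, 0.877 at 45 to 50%, 0.818 (0.728 to 0.923) at 50 to 55% and 0.618 (0.436 to 0.917) in 27 pairs at 55 to 60%. The medians of all peaks hardly differed, with 473 bp in B6 (465 to 483) and 470.5 bp in Spo11 KO (461 to 480). A width depends on the depth of a library as well as on the site, and which of them moved here was not tested.

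**Figure D3:**
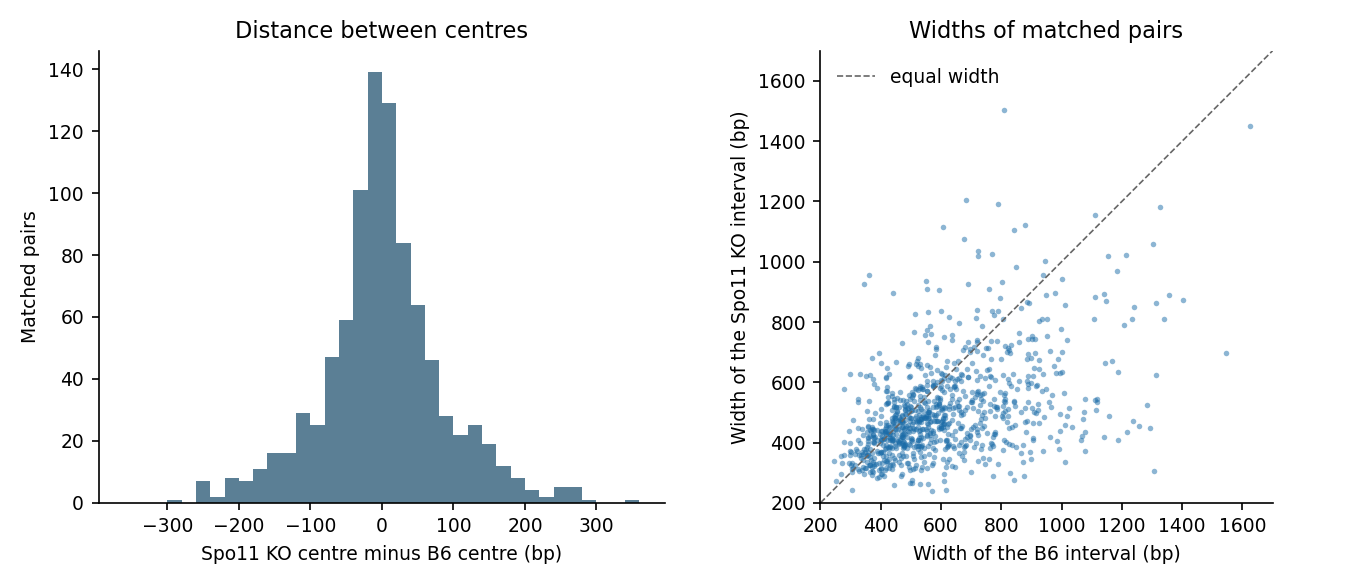
The 923 matched pairs. Left: Spo11 KO centre minus B6 centre (bp), in steps of 20 bp, against the number of pairs. Right: width of the Spo11 KO interval against that of its B6 partner (bp), 1 point a pair, with a dashed line at equal width. Distances gather around 0, with a median of -1 bp, and 636 pairs lie below the line.

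Row numbers must be read with care, because the rows of the Spo11 KO list are not ranked throughout. Its rows are sorted by chromosome name and position within 3 long runs, rows 14 to 41, 42 to 216 and 217 to 1070, and the last run holds 854 of 1070 peaks. The longest such run in the B6 list was 6 rows. Between the runs the order followed that of B6: the partners of rows 1 to 13 had a median B6 row of 9, those of rows 14 to 41 of 38, those of rows 42 to 216 of 204.5, and those of the last run of 886. Median widths of the Spo11 KO intervals fell in the same order, 873, 699, 608 and 442.5 bp. Row numbers of partners had a Spearman's rho of 0.44 over all 923 pairs, 0.10 over 27 pairs in the first run, -0.10 over 160 in the second and -0.04 over 723 in the third, so the relation of the row numbers lay between the runs. The first rows of both lists were largely the same sites. The first 5 Spo11 KO peaks had the B6 rows 2, 7, 9, 4 and 3, were all class 1a and lay on chromosomes 12, 2, 12, 4 and 8. The first of them measured 873 bp at chr12:27374057-27374929, against 1402 bp in B6.

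**Figure D4:**
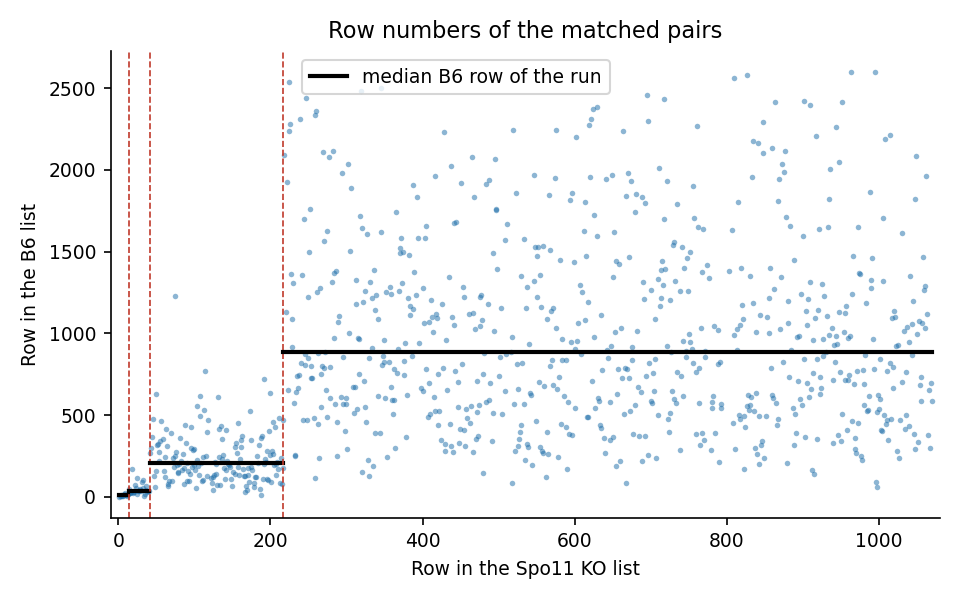
Row in the B6 list against row in the Spo11 KO list for the 923 matched pairs, 1 point a pair. Dashed lines mark where runs of rows sorted by position begin, and black bars the median B6 row of the pairs in each run. The bars rise from 9 to 886 between runs, and the points show no slope within the last run.

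All chromosomes gave shared peaks, and the X chromosome gave the highest share. Of its 52 B6 peaks 29 had a Spo11 KO peak (55.8%, 41.3 to 69.5%), against 894 of 2549 on the autosomes (35.1%, 33.2 to 37.0%). All 29 were class 1, so that 29 of 41 class 1 peaks on X (70.7%, 54.5 to 83.9%) and 889 of 1840 on autosomes (48.3%, 46.0 to 50.6%) were shared. Class 1 peaks on X had a median GC of 40.5% and those on autosomes 45.5%. At the autosomal shares for the same groups of row and GC, with 55% and over as 1 group, 26.7 of the 41 would have been shared (65.0%). This is inside the interval of the value found. X held 3.18% of the Spo11 KO peaks (2.21 to 4.41%) and 1.999% of the B6 peaks (1.497 to 2.61%), and these intervals overlap.

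Among autosomes, chromosome 3 had the highest class 1 share, 53 of 90 (58.9%, 48.0 to 69.2%), at a median GC of 43%. Chromosome 11 had the lowest, 35 of 107 (32.7%, 23.95 to 42.5%), at a median GC of 46%, and its interval lay below that of all autosomes together. Over the 20 chromosomes, class 1 share and median GC of class 1 peaks had a Spearman's rho of -0.63, a description of 20 points that share the same libraries. Chromosome 11 also held the most class 2A peaks of B6, 47 of 169, and 14 of its 49 Spo11 KO peaks had no B6 partner.

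**Figure D5:**
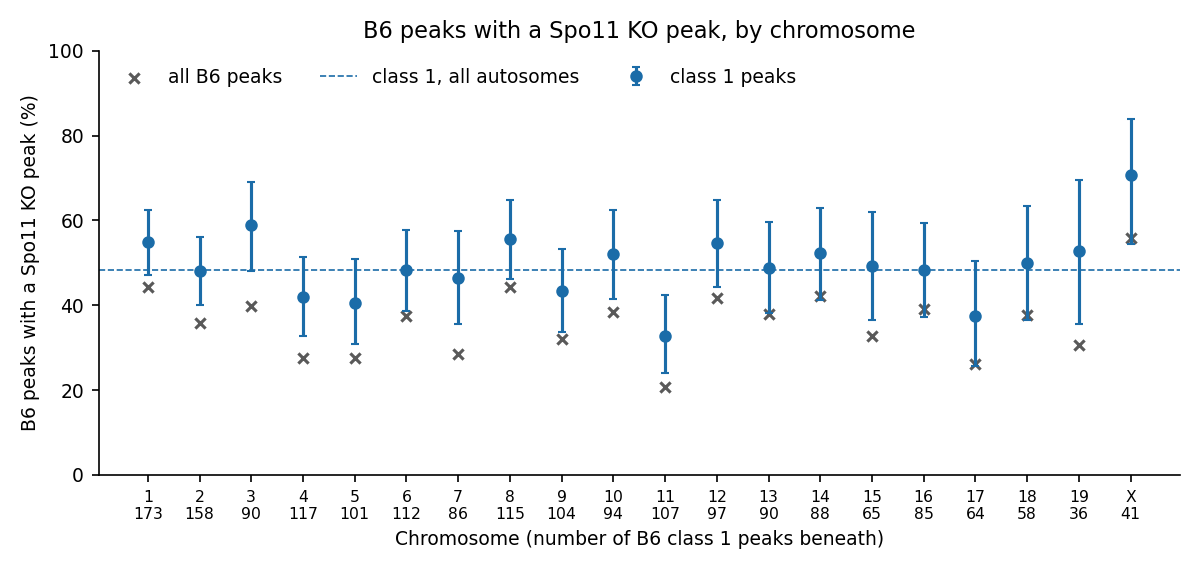
Share of B6 peaks with a Spo11 KO peak (%) by chromosome, with the number of class 1 peaks beneath each. Points are class 1 shares with 95% Clopper-Pearson intervals, crosses the shares of all B6 peaks, and the dashed line the class 1 share of the autosomes, 48.3%. X lies highest at 70.7% and chromosome 11 lowest at 32.7%.

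The B6 peaks that were not found in Spo11 KO numbered 1678, of which 963 were class 1, 460 class 2A and 255 class 2B. Their median width was 429 bp against 558 bp for the shared ones. The PRDM9 word, with up to 1 mismatch, was within the central 200 bp of 277 of 963 unshared class 1 peaks (28.8%, 25.9 to 31.7%), of 256 of 923 shared peaks (27.7%, 24.9 to 30.7%) and of 4.63% of all windows of 200 bp in the genome, and the intervals of unshared and shared peaks overlap. Unshared class 2B and 2A peaks held the word less often than class 1, in 50 of 255 (19.6%) and 57 of 460 (12.4%), but more often than genome windows. These windows were not matched for GC, and the median GC was 50.5% in class 2B and 61% in class 2A of B6. Whether composition accounts for the difference was not tested. The paper, scanning with its own consensus motif, found no significant enrichment in either class. The DMC1 intervals of unshared class 1 peaks were narrower than those at shared sites, with a median of 1952 bp (1930 to 1978) against 2110 bp (2086 to 2132). Over all 14774 B6 DMC1 intervals the median was 1752 bp. In groups of equal number by DMC1 width, the class 1 share rose from 125 of 372 (33.6%, 28.8 to 38.7%) at the narrowest DMC1 intervals to 257 of 372 (69.1%, 64.1 to 73.7%) at the widest. The CTCF core consensus, with up to 1 mismatch, was in 112 of 255 unshared class 2B peaks (43.9%), in 10 of 923 shared peaks (1.08%) and in 1.56% of genome windows. Among the 113 class 2B peaks of B6 with the consensus 1 was shared (0.885%, 0.0224 to 4.83%), and among the 147 without it 4 (2.72%, 0.746 to 6.82%).

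The 5 class 2B pairs were few enough to name. The first in the B6 list, chr6:40843438-40843967, was 530 bp wide at row 368 in B6 and 443 bp at row 903 in Spo11 KO, holds the exact CTCF consensus printed above and is intergenic, 6210 bp from the start of Moxd2. The next were on chromosome 1 (row 583 in B6, 511 and 345 bp) and chromosome 10 (row 730, 550 and 487 bp). The other two lay on chromosome 8 near the end of the B6 list, at rows 2597 and 2598, and there the Spo11 KO intervals were the wider, 340 against 245 bp and 271 against 252 bp. The first unshared class 2B peaks of B6 were at the promoter of Lamp1, a lysosomal membrane protein (row 287, GC 68.5%), 21619 bp from the start of Cacna2d2 (row 386, GC 61%), and at the promoter of Slc25a4, the mitochondrial carrier of ADP and ATP (row 537, GC 68%).

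Spo11 KO peaks without a peak in the B6 list used here, which lacks those common with RJ2, numbered 147: 73 class 1, 2 class 2A and 72 class 2B. Of all 147, 71 met a B6 DMC1 centre (48.3%), and these 71 are in class 1 by its definition. Their DMC1 intervals had a median width of 1974 bp (1934 to 2032), and those of unshared B6 class 1 peaks 1952 bp, and the median GC of the 73 class 1 peaks was 44.5%. The class 1 intervals themselves were narrower than those of shared Spo11 KO peaks, 397 bp (375 to 447) against 474 bp. The word was within the central 200 bp of 14 of 73 (19.2%), and exact in 0 of all 147 peaks found in Spo11 KO only. It was as frequent in the class 2B peaks found in Spo11 KO only, 14 of 72 (19.4%). Among the 42 of these that lay over no RJ2 or Prdm9 KO peak, it was in 4 (9.52%, 2.66 to 22.6%). The first class 1 peak among them was chrX:166408365-166409687 (1323 bp, row 41), in an intron of Mid1, a gene that reaches the pseudoautosomal boundary of the mouse X. The next were chr3:82168872-82169575 in an intron of Mtap9 (row 145), whose sequence is printed above, and chr7:126656816-126657350 in an intron of Pdilt (row 177).

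The class 2B peaks of Spo11 KO differed from those of B6 in the CTCF consensus, GC content and width. The share with the PRDM9 word hardly differed when all 72 unshared ones were counted (19.4%). It was 9.52% in the 42 of them over no RJ2 or Prdm9 KO peak. Of the 77 only 5 were shared, and of the 72 others 3 had the CTCF consensus (4.17%), against 43.9% of the unshared class 2B peaks of B6. Their median GC was 42.8% against 50.5% in class 2B of B6, and their median width 470 bp against 358 bp. Of these 72, 23 overlapped a PRDM9 peak of RJ2 and 12 a peak of Prdm9 KO testes, which have no PRDM9, with 30 overlapping either and 42 neither. Among the 923 shared peaks 0 overlapped either list. This count was largely fixed beforehand, because peaks over either list are described as removed from the B6 list. The B6 list was deposited without the peaks it had in common with RJ2, and such a step is not described for Spo11 KO. Counterparts of those 23 could therefore not be looked for in this B6 list. The paper set the Spo11 KO peaks against all B6 peaks, common ones included, and counted slightly more overlaps than the 923 found here. Within 100 kb of another of the 72 lay 20, and 14 of the 72 were on chromosome 4, whereas 0 of the 73 unshared class 1 peaks lay that close to each other. Without the peaks over RJ2 or Prdm9 KO peaks, 89.01% of the Spo11 KO list was shared (86.9 to 90.9%). Every peak left out here was unshared, so the share could only rise.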

How the data were processed

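The deposited files are lists of peak intervals on mm9, with no score, ratio or read count. Per the methods, the authors mapped reads with Bowtie2, kept unique reads without duplicates and with at most 1 mismatch, called peaks with MACS2, pooled the 2 ChIP replicates, kept as many as passed the irreproducible discovery rate (IDR), and removed peaks over Prdm9 KO peaks. They also removed peaks common to B6 and RJ2 from the B6 list. How rows were ordered is not given in the sources used here.

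Positions were read as deposited. Partners overlapped by at least 1 bp. Classes used the B6 DMC1 list (central 400 bp) and H3K4me3 where it covered 10% or more of a PRDM9 peak, and the other H3K4me3 lists of the study were not used here. Shares carry 95% Clopper-Pearson intervals, and medians carry intervals from order statistics. GC and motifs were read from the NCBIM37 (mm9) genome, and genes from GENCODE vM1. Named sites were the first rows of each kind (the first 5 Spo11 KO peaks, first 5 peaks of each list without a partner, first 3 class 2B peaks with and without one, first 15 and first 10 promoter peaks without and with one), the extremes of width, every Spo11 KO class 2A peak, and promoter peaks at listed genes. Members and lists were chosen with earlier results of these data known. On simulated data the class rule was right for 600 of 600 peaks, the overlap for 300 of 300 and the motif search for 134 of 134. Python 3.11.15, numpy 2.4.6, pandas 2.3.3, scipy 1.17.1 and matplotlib 3.10.9 were used.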

Additional observations from a re-analysis of the deposited data

How the results depend on the processing

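No paired analysis was possible because each list pools its replicates and holds no value per replicate, and for the same reason no replicate could be left out. Shares did not change with 50% of the narrower interval or the centre of a peak inside the other as the rule, and with centres at most 200 bp apart the shared part of the Spo11 KO list was 82.9%. In the first 1070 B6 rows 59.6% of all, 74.2% of class 1 and 20% of class 2B peaks (3 of 15) were shared. The first 50% of the Spo11 KO rows, which are in part in the order of chromosomes, met 17.99% of the B6 list. Class 2A stayed at 0 under each of the 9 alternatives run for it, but most of them only removed pairs or peaks and could give no other value. Those that could have given more were intervals at most 1000 bp apart (0 of 460) and 1 bp of H3K4me3 overlap (0 of 462). In pairs from the first 50% of both lists the width ratio was 0.829. With class 1 alone X gave 70.7% and the autosomes 48.3%. Promoters within 500 bp of a start made up 1.41% of shared B6 peaks, and those within 5 kb 10.4% of shared and 39.2% of unshared peaks.

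For the PRDM9 word, B6-only, shared and Spo11 KO-only peaks gave 14.5, 17.9 and 10.9% in the central 100 bp, 32.5, 40.6 and 28.6% in the whole interval and 3.52, 5.20 and 0% without a mismatch. For the CTCF consensus, B6-only peaks gave 6.32, 14.1 and 3.40% under the same settings, shared peaks 4.88% in the whole interval and 0.325% without a mismatch, and Spo11 KO-only peaks 0.680% in the central 100 bp and 1.36% without a mismatch.

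Alternatives chosen after seeing the data gave 89.01% of the Spo11 KO list without peaks over RJ2 or Prdm9 KO peaks, 92.6% of it and 7.69% of the B6 list without the last run of sorted rows, and, among B6 peaks under 50% GC, 51.9% of all and 57.1% of class 1. The first of these values could only be a rise, as every peak left out for it was unshared. Depth limits each absence: a peak missing in Spo11 KO was not detected at that depth.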

Other observations

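Sharing of class 1 peaks high in the B6 list was uneven along chromosomes. In windows of 10 Mb with at least 5 class 1 peaks in the first 1041 B6 rows, of which there were 57, every such peak was shared in 12 windows and under 50% were shared in 7. The lowest was chr5:120000001-130000000 with 2 of 6 at a median GC of 54.25%. Chromosome 4 held 6 of 14 at chr4:130000001-140000000 (GC 52%) and 3 of 7 at chr4:140000001-150000000 (GC 47.5%), and chromosome 11 held 5 of 12 at chr11:50000001-60000000 (GC 50%). These are counts in single windows chosen for being low, and their difference from other windows was not tested.

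The pairs with the most unequal widths were both class 1a. On chromosome 3, chr3:108795663-108795969 in an intron of Fam102b was 307 bp wide in Spo11 KO and 1308 bp in B6, a ratio of 0.235, with centres 92 bp apart. On chromosome 18 a pair 55425 bp from the start of Ppp2r2b was 927 bp wide in Spo11 KO and 345 bp in B6, a ratio of 2.69, with centres 270 bp apart.

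Of the Spo11 KO peaks 13 overlapped a Prdm9 KO peak although such peaks are described as removed, and of the B6 peaks 2 did. All 13 were among the 147 without a B6 partner, which the removal of such peaks from the B6 list made nearly certain.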
